A study of Mus musculus with 6 samples.

Results

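The nuclear genes of the mitochondrial respiratory chain were compared between mouse embryonic stem cells with and without Rbbp4. The set was chosen by name: protein-coding genes whose GENCODE M21 symbol starts with Ndufa, Ndufb, Ndufc, Ndufs, Ndufv, Uqcr, Cox4 to Cox8 or Atp5, or is Sdha, Sdhb, Sdhc or Sdhd, with Ndufa4l2 left out. It held 92 of the 51912 Ensembl genes in the files. Of these, 82 encode subunits, 8 are Ndufaf genes for complex I assembly factors, and 2, Cox7a2l and Atp5s, encode associated factors. Expression was high enough to test for 88 of the 92, and the other 4, Cox6a2, Cox7b2, Cox8b and Cox8c, are described by their values (Cox7b2 entered some of the alternative fits).

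Total RNA of embryonic stem cells of the C57BL/6 strain was sequenced in 6 libraries. Rbbp4F/F cells, the control named in the series title, gave 3 libraries, and the knockout, labelled Rbbp4KO or Rbbp4-/-, gave the other 3. Rbbp4 encodes a histone chaperone that sits in several complexes acting on chromatin. Which exons were deleted, how the gene was removed and whether replicates were separate cultures or clones were not given in the sources used here. A p-value below therefore measures the spread between libraries, which may be technical. Values are FPKM, fragments scaled to transcript length in kilobases and to the size of the library. Differences are knockout minus control on the log2(FPKM + 1) scale, and a gene was called when the limma adjusted p, corrected by the Benjamini-Hochberg method over 13579 tested genes, was under 0.05. In bulk RNA, fewer cells of a type and less RNA per cell cannot be told apart.

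The respiratory chain moves electrons from NADH through complex I, or from succinate through complex II, to ubiquinone, then through complex III and cytochrome c to complex IV, which reduces oxygen. The proton gradient that complexes I, III and IV build drives ATP synthase, or complex V. A few subunits of complexes I, III, IV and V are encoded in mitochondrial DNA, while the rest, and all of complex II, are nuclear and imported, so a complete complex needs transcripts from both genomes. Several complex IV subunits also exist as tissue isoforms, with forms typical of testis, lung, heart and skeletal muscle beside a form made in most cells.

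Transcripts of the set were mostly lower or not distinguishable in the knockout libraries. Of 88 tested genes, 35 fell, 4 rose and 49 were not called. Among all tested genes 59.1% were called, 36.7% higher and 22.5% lower, against 39.8% of the respiratory chain genes called lower and 4.55% called higher. Every knockout library lay below every control library for 40 of the 88 genes (25.5% of all tested genes) and above for 8 (41.3% of all tested genes). The median log2 fold change was -0.15, beside 0.17 for all tested genes, and the range ran from -1.60 for Cox6b2 to 0.38 for Cox5b. Called falls of at least 2-fold on the log2(FPKM + 1) scale were limited to Cox6b2 and Atp5g2, and no called rise reached 2-fold. The added 1 FPKM shrinks changes of low genes. Cox4i2, called lower at -0.96, had a knockout mean of 35.3% of the control mean, and was at -1.56 with a pseudocount of 0.1. 20 genes were called lower with the values as deposited and under all 14 alternative settings, and 0 were called higher throughout, where 12.7% and 17.7% of all tested genes were.

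**Figure D1:**
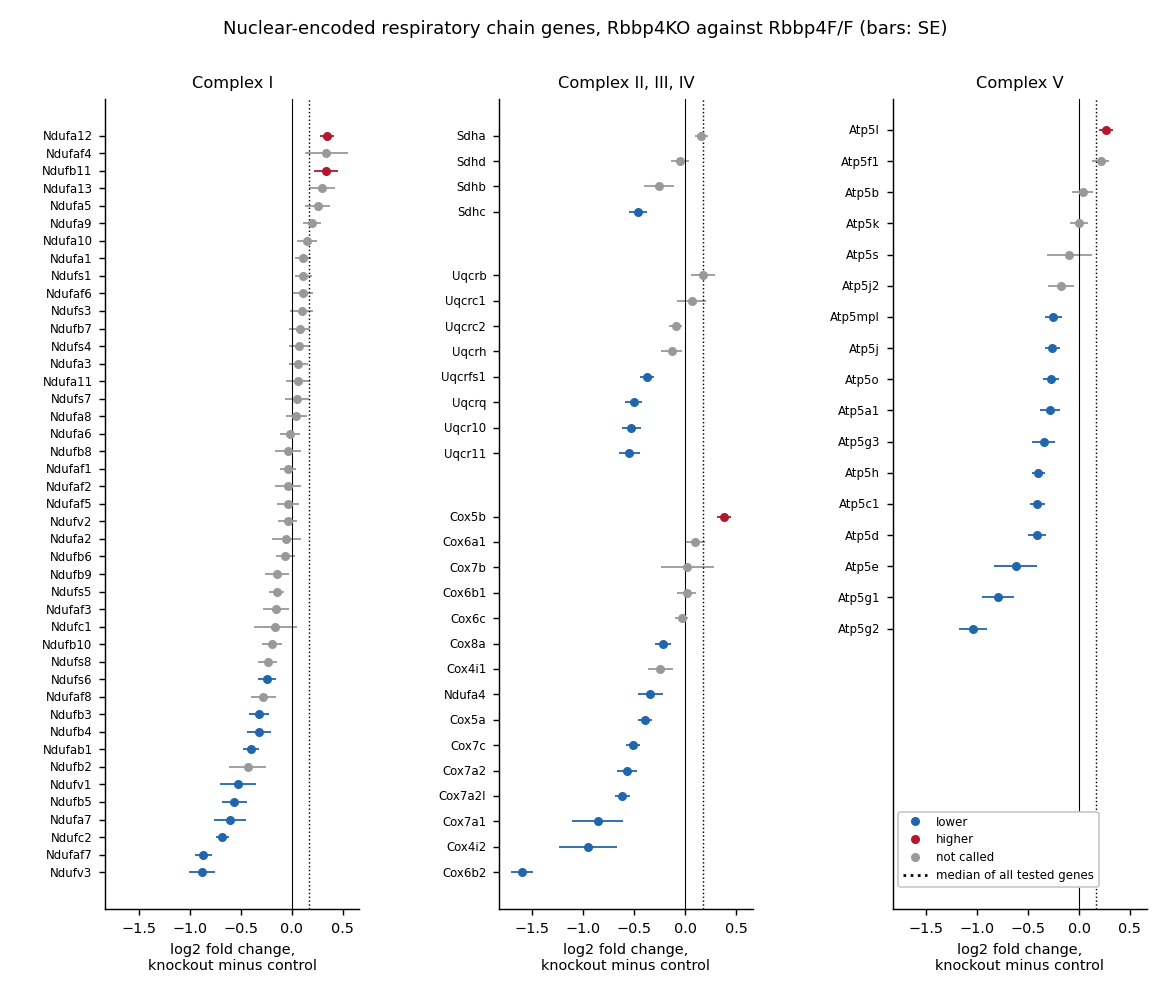
Log2 fold change (knockout minus control, x axis) of 87 of the 88 tested respiratory chain genes, by complex, with bars for the SE. Blue points mark the 35 genes called lower and red points the 4 called higher by limma, and the dotted line is the median of all tested genes at 0.17. Cox6b2 lies farthest to the left, and most genes of complex I lie near 0.

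The libraries separated by genotype, and the targeted gene was at 57.0 to 61.8 FPKM in control cells against 11.1 to 21.3 FPKM in knockout cells (25.5% of the control mean, log2 fold change -1.96 with SE 0.22, limma adjusted p = 3.94e-04). The deposited value covers the whole gene, deleted exons included. Knockout replicate 1 kept the most Rbbp4 transcript and scored 36 on principal component 2, where the other knockouts scored -6.96 and -24.2. Depth was estimated at 25800000 to 28000000 fragments per library from the spacing of low values. Of 8 pluripotency markers 7 fell, and their summed level went from 2743 to 2988 FPKM in the controls to 782 to 1037 FPKM in the knockouts. Of 8 trophoblast markers 6 rose and 0 fell (0 also at an unadjusted limma p under 0.05), with summed levels of 113 to 169 FPKM and 2188 to 3934 FPKM. Of 6 primitive endoderm markers 3 were tested and 2 rose, from a sum of 2.26 to 3.82 FPKM to 8.61 to 9.02 FPKM. Fibroblast markers, which would mark feeder cells, were under 1 FPKM in every library for 6 of 7. The other, Thy1, had 11.65, 17.95 and 14.67 FPKM in control cells against 8.01, 7.26 and 7.76 FPKM in knockout cells, lower in every knockout (log2 fold change -0.84 with SE 0.16, limma adjusted p = 0.00371). The knockout libraries thus differed from the control libraries in markers of cell state, and the part of that difference in the values below was not tested.

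Complex I, the NADH dehydrogenase, was the largest group and, with the values as deposited, the one whose median was closest to 0. Of its 44 genes, 10 fell, 2 rose and 32 were not called, with a median log2 fold change of -0.04. The share that fell, 22.7%, was near the 22.5% of all tested genes, while 4.55% rose, beside 36.7%. The 7 core subunits, which carry the flavin and the iron-sulfur clusters of the peripheral arm, had a median of 0.05, and 1 of them fell. That gene was Ndufv1, the flavin subunit that binds NADH, with 111, 116 and 113 FPKM in control replicates 1 to 3 and 104, 74.1 and 62.3 FPKM in knockout replicates 1 to 3. Knockout replicate 1 was close to the controls and the other 2 were well below, with no overlap (log2 fold change -0.53 with SE 0.17, limma adjusted p = 0.0351). The call was lost without any one control (limma adjusted p 0.0812 to 0.0958), without knockout replicate 2 (0.101) or without knockout replicate 3 (0.0782). The other 6 core subunits were not called, with log2 fold changes from -0.24 to 0.11.

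The 29 accessory subunits of complex I, which surround the core and are needed for its assembly and stability, gave 8 falls and 2 rises. These were 27.6% and 6.90% of them, beside 22.5% and 36.7% of all tested genes. Ndufv3 (ENSMUSG00000024038, GRCm38 chromosome 17, 31520115 to 31531331, plus strand, with 5 exonic blocks), a small subunit of the NADH-oxidising tip of the complex, had the largest fall. It measured 137, 142 and 142 FPKM in control cells against 90.9, 74.7 and 64.3 FPKM in knockout cells. All 3 knockouts lay far below the narrow range of the controls, and the mean was 54.5% of the control mean (log2 fold change -0.88 with SE 0.12, limma adjusted p = 0.00105). Ndufc2, a subunit of the membrane arm, had 131, 134 and 127 FPKM in control cells against 79.3, 82.9 and 81.3 FPKM in knockout cells. The knockouts agreed closely here, replicate 1 included (log2 fold change -0.68 with SE 0.06, limma adjusted p = 2.10e-04). Falls called under every setting were also found for Ndufb5 of the membrane arm (log2 fold change -0.56) and for Ndufab1, the mitochondrial acyl carrier protein that is also a complex I subunit (log2 fold change -0.40). Exons of Mrpl47 on the other strand cover 12.3% of Ndufb5, and use of strand in counting was not given in the sources used here.

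The remaining falls in complex I were less stable. Ndufa7, an accessory subunit of the peripheral arm, had 620, 663 and 645 FPKM in control cells against 545, 381 and 362 FPKM in knockout cells. The groups did not overlap (log2 fold change -0.61 with SE 0.15, limma adjusted p = 0.0129), and the call was lost only without knockout replicate 2, among the 14 alternatives (limma adjusted p = 0.0507). Ndufb3 and Ndufb4, both of the membrane arm, each had a log2 fold change of -0.32, with limma adjusted p of 0.0289 and 0.0483. Ndufs6, a zinc-binding subunit that joins late in assembly, had 131, 149 and 154 FPKM in control cells against 125, 126 and 114 FPKM in knockout cells. The lowest control was only just above the highest knockout (log2 fold change -0.24 with SE 0.09, limma adjusted p = 0.0476). After correction for transcript length and GC content, Ndufb3, Ndufb4 and Ndufs6 were not called (limma adjusted p = 0.104, 0.169 and 0.459). The calls of Ndufb3, Ndufb4 and Ndufs6 were each lost without control replicate 2 or 3 or without knockout replicate 3 (limma adjusted p 0.0506 to 0.149), those of Ndufb3 and Ndufb4 also without control replicate 1 (0.101 and 0.104), and those of Ndufb4 and Ndufs6 also without knockout replicate 2 (0.13 and 0.0836).

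Rises in complex I were found for 2 accessory subunits. Ndufa12, a subunit of the peripheral arm added late in assembly, had 226, 223 and 207 FPKM in control cells against 282, 273 and 279 FPKM in knockout cells. Each knockout lay above each control (log2 fold change 0.34 with SE 0.07, limma adjusted p = 0.00399). A processed pseudogene, Gm15920, shares 26.2% of the 50-base stretches of the Ndufa12 transcript, so reads could be split between them. Ndufb11, an X-linked subunit of the membrane arm, had 77.4, 74.1 and 81.0 FPKM in control cells against 115, 96.4 and 84.2 FPKM in knockout cells. The knockouts spread widely and the lowest was just above the highest control (log2 fold change 0.33 with SE 0.12, limma adjusted p = 0.0458). The Ndufb11 call was lost without any one control (limma adjusted p 0.0817 to 0.133) and without knockout replicate 1 (0.0539) or 2 (0.0998), and exons of Rbm10 on the other strand cover 12.9% of the gene. Neither rise was called with median-ratio or upper-quartile scaling, where the log2 fold changes were 0.12 and 0.08 for Ndufa12 and 0.11 and 0.07 for Ndufb11.

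The other 19 accessory subunits were not called, with log2 fold changes from -0.43 for Ndufb2 to 0.29 for Ndufa13. They were Ndufa1, Ndufa2, Ndufa3, Ndufa5, Ndufa6, Ndufa8, Ndufa9, Ndufa10, Ndufa11 and Ndufa13, Ndufb2, Ndufb6, Ndufb7, Ndufb8, Ndufb9 and Ndufb10, Ndufc1, Ndufs4 and Ndufs5. Ndufb2, of the membrane arm, had 89.1, 92.7 and 102 FPKM in control cells against 89.5, 70.9 and 53.1 FPKM in knockout cells. Its knockout replicate 1 lay among the controls and the other 2 below them (log2 fold change -0.43 with SE 0.18, limma adjusted p = 0.0728). Ndufa13, which is also known as the cell death regulator GRIM-19, had 51.7, 46.8 and 50.6 FPKM in control cells against 72.9, 60.5 and 51.8 FPKM in knockout cells. The lowest knockout was just above the highest control (log2 fold change 0.29 with SE 0.13, limma adjusted p = 0.0852), and antisense exons of Tssk6 cover 30.0% of the gene. Ndufa5, Ndufa9 and Ndufa10 were at 0.25, 0.20 and 0.15, and Ndufs4, often mutated in inherited complex I disease, was at 0.07.

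Of the 8 Ndufaf genes, whose products help assemble complex I without staying in it, 1 fell (12.5%, beside 22.5% of all tested genes). Ndufaf7, a methyltransferase needed for complex I assembly, had 26.5, 26.7 and 24.8 FPKM in control cells against 13.7, 13.5 and 14.1 FPKM in knockout cells. The values of each group lay within 2 FPKM of each other, and the mean was 53.0% of the control mean (log2 fold change -0.87 with SE 0.08, limma adjusted p = 2.24e-04). The other 7, Ndufaf1 to Ndufaf6 and Ndufaf8, were not called, with log2 fold changes from -0.28 for Ndufaf8 to 0.34 for Ndufaf4. Ndufaf4 was the lowest of the complex I genes, at 4.12 ± 1.12 FPKM in control cells and 5.45 ± 1.2 FPKM in knockout cells (mean ± SD, n = 3).

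Complex II, the succinate dehydrogenase that also works in the citric acid cycle, has 4 subunits, and 1 fell. That is 25%, near the 22.5% of all tested genes, and 0 rose, beside 36.7% of all tested genes. Sdhc, which anchors the enzyme in the membrane and binds ubiquinone, had 105, 110.0 and 108 FPKM in control cells against 86.9, 77.3 and 70.2 FPKM in knockout cells. The groups were apart (log2 fold change -0.46 with SE 0.09, limma adjusted p = 0.00441), and the call held under all 14 alternatives. Sdhd, the other anchor, had 133, 136 and 142 FPKM in control cells against 148, 130.4 and 119 FPKM in knockout cells, and the groups overlapped (log2 fold change -0.05). Sdhb, the iron-sulfur subunit, had 129.5, 142 and 131 FPKM in control cells against 139, 112 and 90.4 FPKM in knockout cells, with knockout replicate 1 among the controls (log2 fold change -0.26 with SE 0.15, limma adjusted p = 0.179). Sdha, the flavin subunit that oxidises succinate, had 121, 120.1 and 124 FPKM in control cells against 138, 138 and 133 FPKM in knockout cells. Every knockout was above every control, and the test was not passed (log2 fold change 0.16 with SE 0.06, limma adjusted p = 0.0605). It was passed without knockout replicate 1 (limma adjusted p = 0.0376). Sdhc and Sdha therefore lay on opposite sides of 0 with the deposited values, while with median-ratio scaling Sdha was at -0.07.

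Complex III, the cytochrome bc1 complex, had 8 genes, of which 4 fell and 0 rose (0 also at an unadjusted limma p under 0.05). The share that fell was 50%, beside 22.5% of all tested genes, while 36.7% of all tested genes rose. The falls were in Uqcrfs1, the Rieske iron-sulfur protein that passes electrons towards cytochrome c, and in the 3 small subunits Uqcr10, Uqcr11 and Uqcrq. Uqcr10 had 661, 698 and 688 FPKM in control cells against 540.1, 443 and 441 FPKM in knockout cells. Uqcr11 had 290.3, 298 and 319 FPKM in control cells against 239, 193 and 190 FPKM in knockout cells. Uqcrq had 464, 459 and 410.2 FPKM in control cells against 331, 303 and 303 FPKM in knockout cells. In all 3 the groups were apart, and in each knockout replicate 1 was the highest knockout. Their log2 fold changes were -0.53 (SE 0.10), -0.55 (SE 0.11) and -0.51 (SE 0.08), with limma adjusted p of 0.00327, 0.00395 and 0.00174. Uqcrfs1 had 105, 103 and 106 FPKM in control cells against 80.3, 84.3 and 77.1 FPKM in knockout cells, apart by more than the spread of either group (log2 fold change -0.37 with SE 0.07, limma adjusted p = 0.00299). These 4 calls held under all 14 alternatives. The core proteins Uqcrc1 and Uqcrc2, the hinge protein gene Uqcrh and Uqcrb were not called, at 0.06, -0.09, -0.14 and 0.17.

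Complex IV, cytochrome c oxidase, had 19 genes in the set and 15 tested, of which 9 fell and 1 rose. The share lower was 60%, beside 22.5% of all tested genes, and 6.67% were higher, beside 36.7%. The nuclear subunits of complex IV surround a catalytic core encoded in mitochondrial DNA. Among the forms made in most cells, Cox7c had 646, 696 and 680.2 FPKM in control cells against 472, 468 and 476 FPKM in knockout cells. The 3 knockouts were almost equal and far below the controls (log2 fold change -0.51 with SE 0.07, limma adjusted p = 7.21e-04). Cox5a, a matrix-side subunit, had 353, 358 and 363 FPKM in control cells against 281, 279 and 256 FPKM in knockout cells. The groups were again apart (log2 fold change -0.40 with SE 0.07, limma adjusted p = 0.00256). Cox7c shares 22.7% of its 50-base stretches with the pseudogene Gm10012, and exons of Gm26631 on the other strand cover 12.8% of Cox5a. Cox7a2l, an associated factor gene, had 176, 166 and 191 FPKM in control cells against 116, 115 and 114 FPKM in knockout cells. The knockouts spanned under 3 FPKM, at 64.9% of the control mean (log2 fold change -0.62 with SE 0.07, limma adjusted p = 5.41e-04). The calls of Cox7c, Cox5a and Cox7a2l held under all 14 alternatives.

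The single rise in complex IV was in Cox5b, a zinc-binding matrix-side subunit and the partner of Cox5a. Cox5b had 215, 202 and 209.5 FPKM in control cells against 283, 272 and 259 FPKM in knockout cells, so all knockouts were above all controls (log2 fold change 0.38 with SE 0.07, limma adjusted p = 0.00304). With median-ratio scaling the difference was 0.15 and not called (limma adjusted p = 0.112), and with upper-quartile scaling it was 0.11 (limma adjusted p = 0.242). Gm11273, a protein-coding copy, shares 25.9% of its 50-base stretches. Ndufa4, named for complex I but a subunit of complex IV, had 247, 268 and 263 FPKM in control cells against 169, 227 and 220.3 FPKM in knockout cells. Knockout replicate 1 was the lowest here, unlike in most of the set (log2 fold change -0.34 with SE 0.12, limma adjusted p = 0.0433). Cox8a had 632, 659 and 621 FPKM in control cells against 586, 527 and 531 FPKM in knockout cells (log2 fold change -0.22 with SE 0.07, limma adjusted p = 0.0392). Both groups of both genes were apart, and both calls were lost without any one control (limma adjusted p 0.0742 to 0.131), that of Cox8a also without knockout replicate 2 (0.14) or 3 (0.0882). After correction for transcript length and GC content Cox8a was at 0.03 and Ndufa4 at -0.18, neither called (limma adjusted p = 0.730 and 0.152).

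The pair Cox6b1 and Cox6b2 had the largest difference in isoform share among the 7 families compared. Both encode the intermembrane-space subunit that bridges the monomers of the complex IV dimer, Cox6b1 in most cells and Cox6b2 typically in testis. Cox6b2 (ENSMUSG00000051811, GRCm38 chromosome 7, 4751792 to 4753094, minus strand, with 2 exonic blocks) had 76.1, 74.7 and 89.9 FPKM in control cells against 24.7, 28.8 and 23.6 FPKM in knockout cells. Cox6b1 had 286, 235 and 289 FPKM in control cells against 273, 275 and 263 FPKM in knockout cells. All Cox6b2 knockout values were under 40% of the lowest control, whereas the Cox6b1 groups overlapped. Cox6b2 fell to 32.0% of the control mean (log2 fold change -1.60 with SE 0.11, limma adjusted p = 7.40e-05), the smallest adjusted p of the set, and Cox6b1 was at 0.01 (SE 0.10, limma adjusted p = 0.927). The Cox6b2 call held under all 14 alternatives (limma adjusted p 4.47e-05 to 8.85e-04), and no antisense exon or near-identical copy of Cox6b2 was found. The share of Cox6b2 in the summed FPKM of the pair was 21%, 24.2% and 23.8% in the controls and 8.29%, 9.47% and 8.22% in the knockouts. This share does not depend on scaling between libraries, and it differed by -14.3 percentage points (exact permutation test, two-sided, p = 0.1, the smallest that 3 against 3 libraries can give, and 0.267 after Benjamini-Hochberg adjustment over 16 shares).

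The 160 bases before the RefSeq start of each gene of the pair (GRCm38.p6, minus strand for both, chr7:30626115-30626274 for Cox6b1 and chr7:4753095-4753254 for Cox6b2) are shown because the 2 genes, whose products fill the same position, behaved so differently. Capitals mark a match to the ETS motif CCGGAAG, here on the opposite strand, and Cox6b2 has no match to the 3 motifs searched in this window.
Cox6b1: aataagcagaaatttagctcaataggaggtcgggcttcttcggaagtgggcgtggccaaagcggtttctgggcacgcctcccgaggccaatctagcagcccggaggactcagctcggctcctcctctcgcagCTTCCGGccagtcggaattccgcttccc
Cox6b2: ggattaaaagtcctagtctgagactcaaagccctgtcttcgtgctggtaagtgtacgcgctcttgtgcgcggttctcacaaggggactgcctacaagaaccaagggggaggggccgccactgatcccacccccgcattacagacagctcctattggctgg

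Cox4i2 and Cox7a1 are the other minor isoforms that could be tested. Cox4i2, a form typical of lung and induced by low oxygen, had 3.61, 1.90 and 2.74 FPKM in control cells against 1.69, 0.400 and 0.820 FPKM in knockout cells. These values stand for about 22.4 to 47.8 fragments in the controls and 5.04 to 21.1 in the knockouts, and the lowest control was just above the highest knockout. The log2 fold change was -0.96 (SE 0.28, limma adjusted p = 0.0226), and leaving out control 1 (0.0825), control 3 (0.0684), knockout 2 (0.0715) or knockout 3 (0.0601) ended the call. The gene does not reach the 5 FPKM filter. Its partner Cox4i1 had 800, 809 and 803 FPKM in control cells against 798, 674 and 581 FPKM in knockout cells. Knockout replicate 1 was within 2 FPKM of the lowest control, and Cox4i1 was not called (log2 fold change -0.24 with SE 0.12, limma adjusted p = 0.115). The share of Cox4i2 in the pair was 0.234% to 0.449% in the controls and 0.0593% to 0.211% in the knockouts (exact permutation test, two-sided, p = 0.1).

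Cox7a1, the heart and skeletal muscle form, had 17.0, 12.0 and 12.0 FPKM in control cells against 4.68, 7.56 and 9.45 FPKM in knockout cells. Cox7a2, the form made in most cells, had 136, 132 and 156 FPKM in control cells against 101, 96.6 and 86.0 FPKM in knockout cells. The groups were apart in both genes, and the order of the knockouts was opposite, with replicate 1 lowest for Cox7a1 and highest for Cox7a2. The log2 fold changes were -0.86 (SE 0.25, limma adjusted p = 0.0207) and -0.57 (SE 0.10, limma adjusted p = 0.00228). The Cox7a1 call was lost without control replicate 1 (limma adjusted p = 0.0735), and that of Cox7a2 held under all 14 alternatives. The share of Cox7a1 in the pair overlapped between groups, at 7.16% to 11.1% in the controls and 4.43% to 9.90% in the knockouts (exact permutation test, two-sided, p = 0.5). Of 7 striated muscle markers 4 were under 1 FPKM in every library, 2 were tested and 1 of these rose. The summed level of the 7 was 5.71 to 9.62 FPKM in control cells against 14.4 to 27.9 FPKM in knockout cells. The relation of these markers to Cox7a1 was not tested.

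The other minor isoforms were at or near the limit of detection. Cox7b2, a testis form, had 0.630, 1.32 and 1.2 FPKM in the controls, about 5 to 9 fragments, and 0, 0 and 0.820 FPKM in the knockouts. A count of 0 at this depth allows up to 3 fragments, or 0.380 to 0.437 FPKM depending on the library, so 2 of 3 knockouts were below the controls and the third was not. It was too low for the test with all 6 libraries, entered 4 of the fits with 1 library left out, and was called lower in 1 of them, without knockout replicate 3 (limma adjusted p = 0.00970). The share of Cox7b2 in its pair with Cox7b did not separate the groups (exact permutation test, two-sided, p = 0.3), and Cox7b itself varied from 87.2 to 175 FPKM among the knockouts. Cox6a2, a heart and muscle form, reached 0.19 FPKM, about 2 fragments, in 1 control and 0.09 FPKM, about 1 fragment, in 1 knockout, and was 0 elsewhere. Its partner Cox6a1 was at 737 ± 51.8 FPKM in control cells and 787 ± 77.4 FPKM in knockout cells (mean ± SD, n = 3), not called. Cox8c had about 1 fragment in knockout replicate 1 and none in the other libraries, and Cox8b, the muscle form, was 0 in all 6, which allows up to 1.07 to 1.38 FPKM on its short transcript. Cox6c was not called, with a log2 fold change of -0.04.

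**Figure D2:**
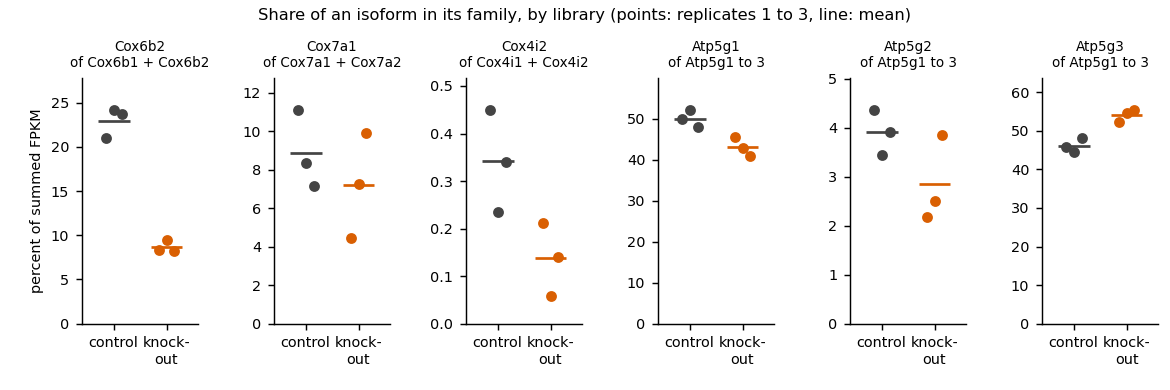
Share of an isoform in the summed FPKM of its family (percent, y axis, each panel from 0) in the 3 control and 3 knockout libraries, with lines at the group means. Cox6b2 is at 21% to 24.2% in the controls and 8.22% to 9.47% in the knockouts, whereas the Cox7a1 and Atp5g2 shares overlap between groups.

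With the values as deposited complex V had 11 of 17 genes lower, 1 higher and 5 not called, and a median log2 fold change of -0.27. The share lower was 64.7%, beside 22.5% of all tested genes, and 5.88% were higher, beside 36.7%. With equal FPKM sums 5 of the 17 were lower, and after correction for length and GC content 6 were. As deposited, the falls were spread over the parts of the enzyme. All 3 genes of the c ring, the rotor in the membrane, fell, as did 4 of 5 genes of the F1 head and central stalk and 3 of 4 of the peripheral stalk. Of the 4 small membrane subunits 1 fell and 1 rose.

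The c ring is built from identical copies of 1 mature protein, which Atp5g1, Atp5g2 and Atp5g3 all encode behind different import sequences. Atp5g1 had 623, 665 and 582 FPKM in control cells against 456, 349 and 290.1 FPKM in knockout cells. Atp5g2 (ENSMUSG00000062683, GRCm38 chromosome 15, 102662864 to 102672352, minus strand, with 6 exonic blocks) had 54.5, 44.0 and 47.7 FPKM in control cells against 21.9, 20.5 and 27.4 FPKM in knockout cells. Atp5g3 had 571, 568 and 587 FPKM in control cells against 525, 446 and 394 FPKM in knockout cells. In all 3 genes every knockout was below every control. Their log2 fold changes were -0.79 (SE 0.16, limma adjusted p = 0.00500), -1.04 (SE 0.13, limma adjusted p = 7.06e-04) and -0.35 (SE 0.11, limma adjusted p = 0.0304). The calls of Atp5g1 and Atp5g2 held under all 14 alternatives, and that of Atp5g3 was lost without any one control (limma adjusted p 0.0767 to 0.0889) and without knockout replicate 2 (0.0886) or 3 (0.0643).

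The share of each gene among the c subunit transcripts does not depend on scaling between libraries. Atp5g1 held 49.9%, 52.1% and 47.8% of the summed FPKM of the 3 genes in the controls and 45.4%, 42.8% and 40.8% in the knockouts, and Atp5g3 held 45.7%, 44.5% and 48.2% and then 52.4%, 54.7% and 55.4%. The groups did not overlap for either share, with differences of -6.96 and 8.02 percentage points (exact permutation test, two-sided, p = 0.1 for each, the smallest possible). The share of Atp5g2 was 3.44% to 4.36% in the controls and 2.18% to 3.85% in the knockouts and overlapped (exact permutation test, two-sided, p = 0.2). FPKM divides by transcript length, and the longest Atp5g1 transcript in the annotation, at 4715 bases, is far longer than those of Atp5g2 and Atp5g3, at 753 and 723 bases, so the levels compared depend on which transcripts the counting used.

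The 160 bases before the RefSeq start of the 3 c subunit genes (GRCm38.p6, minus strand for all, chr11:96075632-96075791 for Atp5g1, chr15:102671048-102671207 for Atp5g2 and chr2:73911327-73911486 for Atp5g3) are given because these genes encode the same mature protein from separate promoters. Capitals mark overlapping matches on both strands to the NRF1 motif GCGCATGCG, which only Atp5g2 has among the 3.
Atp5g1: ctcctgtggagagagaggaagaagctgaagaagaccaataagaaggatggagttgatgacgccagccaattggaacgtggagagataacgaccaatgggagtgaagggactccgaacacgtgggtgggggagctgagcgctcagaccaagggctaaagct
Atp5g2: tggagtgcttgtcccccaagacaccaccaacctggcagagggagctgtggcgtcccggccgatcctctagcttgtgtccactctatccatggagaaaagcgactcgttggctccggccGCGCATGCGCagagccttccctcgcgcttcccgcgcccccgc
Atp5g3: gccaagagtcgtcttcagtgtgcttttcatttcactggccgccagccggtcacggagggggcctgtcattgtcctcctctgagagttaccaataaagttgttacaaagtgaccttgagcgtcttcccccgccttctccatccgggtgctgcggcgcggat

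In the F1 part, Atp5b, the catalytic beta subunit and the most abundant transcript of the set, had 2577, 2954 and 2503 FPKM in control cells against 2932, 2633 and 2652 FPKM in knockout cells, and the groups overlapped (log2 fold change 0.03 with SE 0.10). Atp5a1, its alpha partner in the head, had 701, 703 and 700 FPKM in control cells against 656, 547 and 529 FPKM in knockout cells. All 3 Atp5a1 knockouts were below the tight control values (log2 fold change -0.29 with SE 0.10, limma adjusted p = 0.0370), and the call was lost without any one control (limma adjusted p 0.0909 to 0.103) and without knockout replicate 2 (0.125) or 3 (0.0945). The central stalk genes Atp5c1 and Atp5d, for the gamma and delta subunits, both fell by 0.41 on the log2 scale (SE 0.07 and 0.09, limma adjusted p = 0.00306 and 0.00777) and held under all 14 alternatives. Atp5e, for the epsilon subunit, had 326, 321 and 324 FPKM in control cells against 299, 195 and 159 FPKM in knockout cells. Knockout replicate 1 was near the controls and the other 2 were far below (log2 fold change -0.62 with SE 0.21, limma adjusted p = 0.0390). The Atp5e call was lost without any one control (limma adjusted p 0.0919 to 0.0970) or without knockout replicate 2 (0.111) or 3 (0.0867).

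In the peripheral stalk, which holds the head still, Atp5h for subunit d fell by 0.40 on the log2 scale (SE 0.06, limma adjusted p = 0.00181) under all settings, with 46.0% of its 50-base stretches shared with the pseudogene Gm10250. Atp5o, for the oligomycin sensitivity protein, fell by 0.27 (SE 0.08, limma adjusted p = 0.0191), and Atp5j, for coupling factor 6, fell by 0.26 (SE 0.07, limma adjusted p = 0.0172). Atp5f1, for subunit b, went the other way without being called, at 181, 184 and 187 FPKM in control cells against 193, 216 and 232 FPKM in knockout cells (log2 fold change 0.21 with SE 0.08, limma adjusted p = 0.0645). Each Atp5f1 knockout was above each control, and the gene was called without knockout replicate 1 (limma adjusted p = 0.00521). The Atp5o call was lost without any one control (limma adjusted p 0.0604 to 0.0662) or knockout replicate 2 (0.0682), and that of Atp5j when control 2 (0.0633), control 3 (0.0648) or knockout 2 (0.0696) was left out. After correction for transcript length and GC content Atp5o was at -0.07 and Atp5j at -0.04, neither called (limma adjusted p = 0.294 and 0.735). Antisense exons cover 18.1% of Atp5o and 12.7% of Atp5j, the latter from Gabpa. A second annotated gene entry that is also named Atp5o shares 24.6% of the 50-base stretches of Atp5o.

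Of the small membrane subunits, Atp5l, for subunit g, rose from 262, 264 and 265 FPKM in the controls to 307, 336 and 308 FPKM in the knockouts. The controls were nearly equal and every knockout was above them (log2 fold change 0.26 with SE 0.07, limma adjusted p = 0.0134). The pseudogene Gm10221 shares 52.5% of its 50-base stretches, the call was lost without control replicate 1 (limma adjusted p = 0.0609) or knockout replicate 2 (0.0628), and the difference was -0.0036 with upper-quartile scaling. Atp5mpl had 198, 229.7 and 215 FPKM in control cells against 169, 190 and 180 FPKM in knockout cells, apart by a few FPKM (log2 fold change -0.25 with SE 0.08, limma adjusted p = 0.0359). Its call was lost without each library in turn except control replicate 1 (limma adjusted p 0.0532 to 0.129). Atp5k for subunit e and Atp5j2 for subunit f were not called, at 0.00 and -0.17, nor was the associated factor gene Atp5s, at -0.10.

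**Figure D3:**
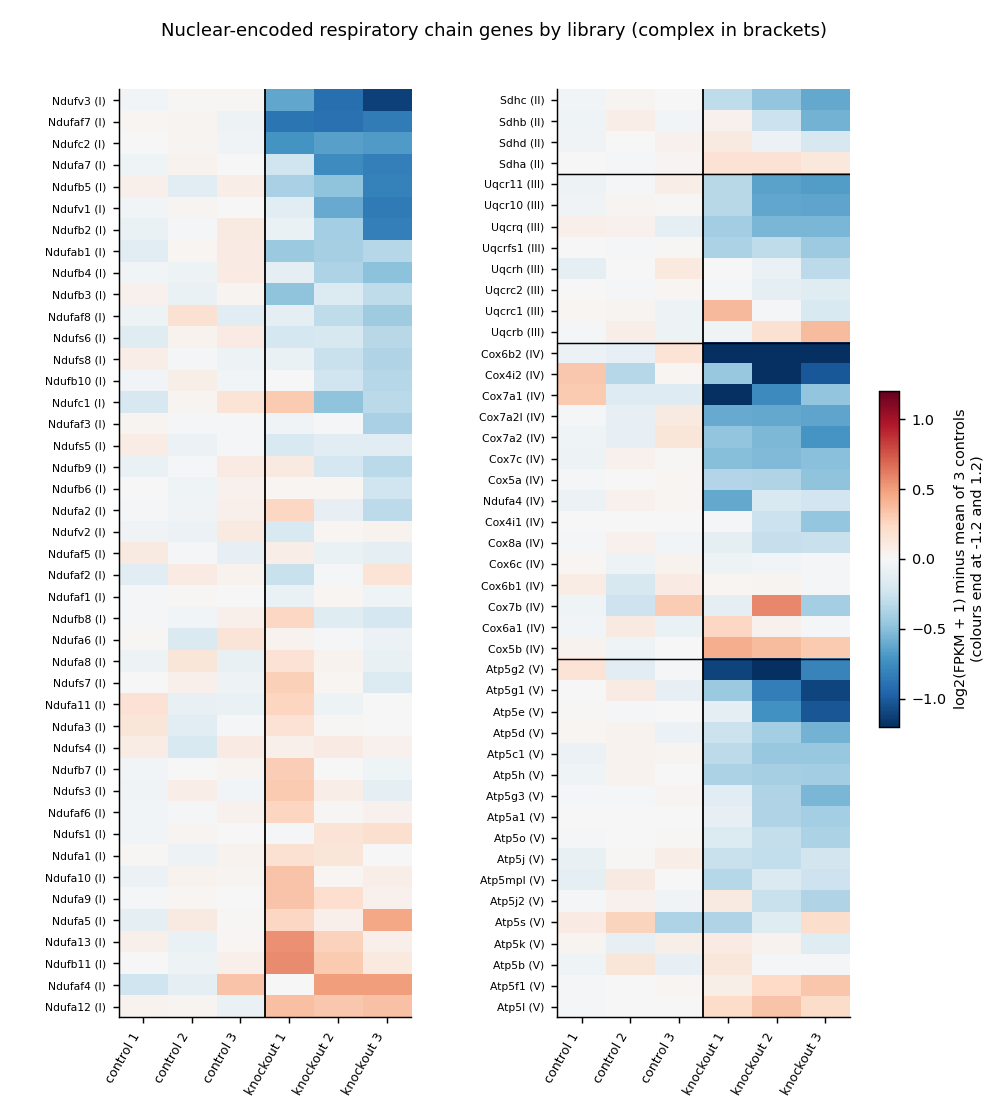
Difference of each library from the mean of the 3 controls on the log2(FPKM + 1) scale (colour, blue lower and red higher, ending at -1.2 and 1.2) for 87 of the 88 tested genes, ordered by fold change within a complex. Knockout 1 is paler than the other knockouts in 22 of the 35 genes called lower, and Cox6b2 is saturated in all 3 knockouts.

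Summed over the genes of a complex, transcript levels as deposited overlapped in complexes I and II and were apart in the others. Complex I summed to 4590.0, 4660 and 4725 FPKM in control cells against 4766, 4101 and 3889 FPKM in knockout cells, with knockout replicate 1 above every control. Complex III summed to 2390, 2460 and 2407 FPKM in control cells against 2175, 1904 and 1850 FPKM in knockout cells, 81.7% of the control mean. Complex IV was at 87.1% and complex V at 87.9% of the control mean. All 92 genes together summed to 19861, 20596 and 20095 FPKM in control cells against 19309, 17356 and 16533 FPKM in knockout cells. As a share of all FPKM in a library, they held 2.51%, 2.57% and 2.54% in the controls and 2.62%, 2.48% and 2.37% in the knockouts, so the shares overlapped. Taken as shares of all FPKM, complexes I, II, IV and V overlapped between groups, and complex III alone was apart, at 0.302% to 0.307% in the controls and 0.265% to 0.295% in the knockouts. The sum of all FPKM was itself lower in the knockouts, at 697933 to 737123 against 790121 to 800146 in the controls.

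Knockout replicate 1 was most often the highest knockout for these genes, in 58 of the 88 tested (65.9%), beside 45.0% of all tested genes. It was so in 22 of the 35 genes called lower (62.9%, beside 61.3% of all tested genes called lower). The same held in 3 of the 4 genes called higher. The median difference from the control mean over the 88 genes was -0.07 in knockout replicate 1, -0.15 in replicate 2 and -0.28 in replicate 3. Without knockout replicate 1, 44 genes were called lower and 7 higher. Without knockout replicate 2 there were 23 and 2, and without knockout replicate 3 there were 26 and 6, 1 of the 26 being Cox7b2. Leaving out control replicate 1, 2 or 3 gave 24, 23 and 22 lower with 2, 3 and 3 higher. Among all genes tested in these 6 fits, which asked for 1 FPKM in 2 libraries in place of 3, 17.2% to 25.6% were lower and 29.9% to 39.9% higher.

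The counts also moved with scaling between libraries. With median-ratio scaling 52 genes were lower and 0 higher, beside 31.1% lower and 26.8% higher among all tested genes. With upper-quartile scaling there were 53 and 0, beside 32.5% and 25.5%. With FPKM sums made equal between libraries 23 were lower and 15 higher, beside 17.5% and 44.7%. The median over all tested genes moved with them, from 0.17 as deposited to -0.04, -0.07 and 0.31. The median of the respiratory chain genes was -0.37, -0.41 and 0.002 in these 3 settings, and so lay 0.31 to 0.34 under that of all tested genes in every one, beside 0.32 as deposited. Equal sums ended 12 of the 35 lower calls, those of Ndufv1, Ndufb3, Ndufb4, Ndufs6, Ndufa4, Cox8a, Atp5e, Atp5g3, Atp5a1, Atp5o, Atp5j and Atp5mpl. Dropping the filter on low values ended 13 of the 39 calls in both directions, Cox7a1 (limma adjusted p = 0.0527) and Cox4i2 (0.0658) among them, and the correction for length and GC content also ended that of Cox7a1 (0.0931). The genes called lower as deposited and under all 3 scalings numbered 23, and 22 of them were also called after correction for transcript length and GC content.

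**Figure D4:**
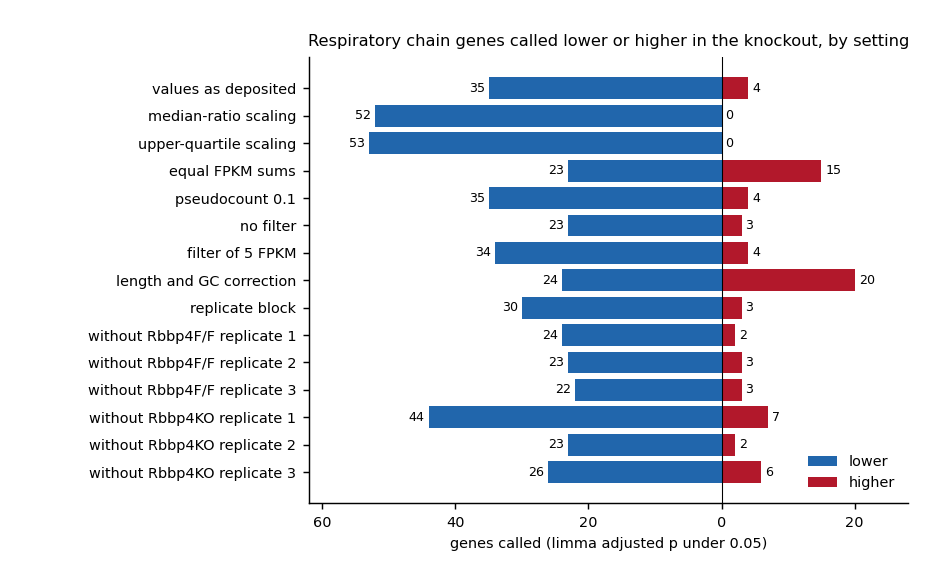
Number of respiratory chain genes called lower (blue, left) and higher (red, right) by limma under each setting, of 88 tested (91 with no filter, 87 with the filter of 5 FPKM, and 88 or 89 with 1 library left out). The lower calls outnumber the higher ones in every setting, from 22 without control replicate 3 to 53 with upper-quartile scaling, and higher calls run from 0 to 20.

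Respiratory chain transcripts are short, with a median longest transcript of 870 bases against 3056 for all tested protein-coding genes, and short genes differed between the groups as a class. Of 374 tested protein-coding genes under 800 bases, these included, 35.0% were lower and 21.9% higher, with a median log2 fold change of -0.15. The 38 respiratory chain genes of that length had a median of -0.24, and 19 of them fell while 1 rose. From 800 to 1500 bases 7 of 27 respiratory chain genes fell, beside 32.3% of protein-coding genes of that length, and from 1500 to 3000 bases 6 of 18 fell, beside 24.1%. At 3000 bases and over 3 of 5 fell and 0 rose, with a median of -0.43, beside 19.1% lower and a median of 0.26 for protein-coding genes of that length. After correction for length and GC content 24 respiratory chain genes were called lower and 20 higher, beside 24.0% lower and 38.7% higher among all tested genes, and their median was -0.02 beside 0.15. In the complexes, this correction left 6 genes of complex V lower in place of 11 and took the higher calls of complex I from 2 to 14.

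**Figure D5:**
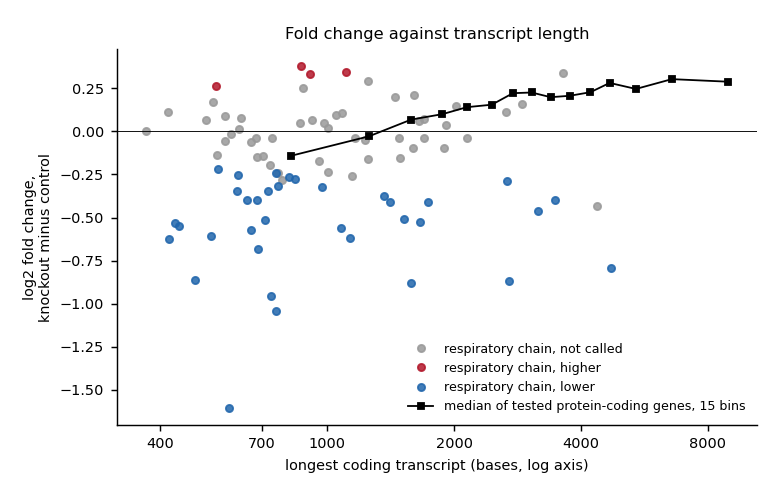
Log2 fold change (y axis) against the longest coding transcript in bases (x axis, log scale) for 87 of the 88 tested respiratory chain genes, coloured by call, with the median of tested protein-coding genes in 15 length bins (black squares). The median line rises with length from -0.14, and the 35 genes called lower all lie under its lowest point.

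Promoters were searched for 3 motifs known from genes of the respiratory chain: NRF1 (GCGCATGCG), ETS (CCGGAAG), to which GABP binds, and YY1 (AAGATGGCG). None of the 3 contains another, both strands were read, and the window ran from 250 bases before to 50 after the RefSeq start. Of 76 respiratory chain genes with a window, 10 held the NRF1 letters (13.2%, beside 1.95% of all 27025 promoters in the table), 18 the ETS letters (23.7%, beside 9.93%) and 8 the YY1 letters (10.5%, beside 1.64%). At least 1 motif was present in 30 (39.5%), beside 12.7% of all promoters. Among the 16477 promoters of protein-coding genes the shares were 2.74% for NRF1, 13.4% for ETS, 2.26% for YY1 and 17.2% for at least 1. By call, a motif was present in 7 of 30 genes that fell, 22 of 40 that were not called and 1 of 4 that rose. Among the genes that fell by the most, Atp5g2 held the NRF1 letters and Cox6b2, Ndufv3, Ndufc2 and Atp5g1 held none of the 3. These matches describe the letters in the window, and no test was made.

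Outside the set, the mitochondrially encoded subunits were lower as well. Of 13, 8 fell (61.5%, beside 22.5% of all tested genes) and 0 rose (0 also at an unadjusted limma p under 0.05). In 9 every knockout was below every control, as in 25.5% of all tested genes. mt-Nd2, a membrane-arm subunit of complex I, had 1072, 1241 and 1337 FPKM in control cells against 302, 406 and 526 FPKM in knockout cells (log2 fold change -1.59 with SE 0.20, limma adjusted p = 6.29e-04). mt-Nd6 and mt-Nd3, also of complex I, fell by 1.47 and 1.22 on the log2 scale (limma adjusted p = 0.00277 and 0.00428). Knockout replicate 1 was the lowest knockout for mt-Nd2, the opposite of its place among the nuclear genes. The 13 genes summed to 22997 to 28863 FPKM in control cells against 11143 to 21954 FPKM in knockout cells. The largest part of this sum in every library was mt-Atp8. It had 8800, 10029 and 12462 FPKM in control cells against 4966, 7085 and 11910 FPKM in knockout cells. The mt-Atp8 groups overlapped, and the gene was not called (limma adjusted p = 0.237). Values of mt-Co2, mt-Co3, mt-Nd4l and mt-Atp6 were erratic, with mt-Co2 listed at 0 in 2 knockouts and at 14.8 FPKM in the other, and mt-Nd4l at 0 in libraries of both groups. The mt-Co2 call was lost without control replicate 3 (limma adjusted p = 0.0566).

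A list on electron carriers held the cytochrome c genes Cycs and Cyct, Etfa, Etfb and Etfdh, and Coq and Pdss genes of ubiquinone synthesis. As deposited, it gave 5 rises and 3 falls among 16 (31.25% and 18.75%, beside 36.7% and 22.5% of all tested genes). The rises were in Etfdh, Pdss1, Pdss2, Coq5 and Coq6, and the falls in Cyct, Coq7 and Etfb. The counts became 3 rises and 4 falls under median-ratio scaling, 2 and 4 under upper-quartile scaling, and 8 and 2 when FPKM sums were equal. Cyct, the testis form of cytochrome c, had 87.8, 82.5 and 99.1 FPKM in control cells against 30.0, 32.7 and 40.1 FPKM in knockout cells. All its knockout values were under the controls (log2 fold change -1.37 with SE 0.13, limma adjusted p = 1.90e-04), while Cycs, the form of most cells, was not called, at 17.3 ± 0.461 FPKM and 18.6 ± 2.60 FPKM (mean ± SD, n = 3). Etfdh, which feeds electrons from fatty acid oxidation into ubiquinone, rose by 1.40 on the log2 scale (limma adjusted p = 1.18e-04), and Pdss1, of ubiquinone side-chain synthesis, rose by 1.23 (limma adjusted p = 1.92e-04).

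Assembly factors moved in both directions, as did all tested genes, of which 36.7% rose and 22.5% fell. Of 18 tested for complex IV, 7 rose (38.9%) and 2 fell (11.1%). The smallest p were those of Surf1 (log2 fold change 1.13, limma adjusted p = 1.75e-04), Coa5 (0.94, limma adjusted p = 2.37e-04) and the copper chaperone Sco2 (1.28, limma adjusted p = 3.19e-04). With median-ratio scaling the counts became 5 and 6, and with upper-quartile scaling 4 and 6. Of 7 for complex I, 2 rose and 2 fell, with Tmem126b at 0.90 (limma adjusted p = 0.00116), Tmem186 at 0.66 (0.00125) and Ecsit at -0.54 (0.0134, or 0.0517 without knockout replicate 2). Of 10 for complexes II and III, 4 rose and 1 fell, with Sdhaf4 at -1.08 (limma adjusted p = 5.32e-04), Ttc19 at 0.95 (7.91e-04) and Sdhaf2 at 0.63 (0.00657). With median-ratio scaling they were 2 and 2. Of 4 for ATP synthase, Atpaf2 and Tmem70 rose by 0.93 and 0.73 on the log2 scale (limma adjusted p = 0.00105 and 0.00315), and Atpif1, the inhibitor of ATP hydrolysis, fell by 0.56 (8.97e-04).

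Regulators of mitochondrial gene expression gave 5 rises and 3 falls among 18 tested (27.8% and 16.7%, beside 36.7% and 22.5% of all tested genes). Gabpb2, a subunit of GABP, was at 0.86 (limma adjusted p = 6.76e-04), Mterf3 at 0.71 (0.00147) and the mitochondrial ribosomal RNA methyltransferase gene Tfb1m at -0.69 (0.00224). With median-ratio scaling 2 were higher and 7 lower. The citric acid cycle, which supplies NADH and succinate, gave 4 rises and 4 falls among 13. Each was 30.8%, beside 36.7% and 22.5% of all tested genes. Idh3b was at 0.69 (limma adjusted p = 2.19e-04), Dlst at 0.57 (6.46e-04) and Fh1 at -0.81 (0.00123). With median-ratio scaling 2 of the 13 were higher and 7 lower.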

How the data were processed

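The series holds 1 file per library with a gene identifier and a value, with no header. Per the submitters' processing notes, the build was GRCm38.p6 and the tools included HISAT2 2.1.0, RSEM, FastQC and DESeq 1.26.0, with no role stated. Annotation release, mapping options and use of strand were not given in the sources used here. The unit of the deposited values was taken as FPKM from the values themselves, which are not whole, sum to different totals per library and, for low values, lie on even steps once 260 to 276 bases are taken off the transcript length (83.9% to 86.5% within 0.15 of a whole step). Those steps gave the depth estimates, at which 1 fragment on 500 bases is worth 0.149 to 0.173 FPKM. No count model was used.

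Of 52872 rows per file, 2 hold no identifier and were left out, as were 958 assembled loci in naming genes. Symbols, coordinates and lengths came from GENCODE M21 on GRCm38, which named 51633 of 51912 genes. It lists 93 genes under the rule, of which 92 are in the files. Promoter sequences came from a RefSeq table on GRCm38.p6.

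A gene entered the test when 3 or more libraries had 1 FPKM or more, or 2 or more where 1 library was left out. The test was limma 3.58.1 (R 4.3.3) on log2(FPKM + 1), which understates changes of low genes. It was two-sided, with genotype as the single term and moderation that follows the mean trend. The fit was checked on simulated data. Shares of isoforms were compared by an exact permutation test over 20 relabellings. Alternatives were 3 scalings between libraries, a pseudocount of 0.1, no filter, a 5 FPKM filter, a loess correction for length and GC content (span 0.5), a replicate block and each library left out in turn. Values by library are given for every isoform family, the called genes with the largest and smallest fold changes of each complex, complex II and some further genes chosen after their values were seen, and from each pathway list up to 3 called genes with the smallest p. The genes, lists and markers were chosen with earlier results of these data known. Intervals and floors cover counting error only. The values of 1 gene of the set are not reported here, though it is part of the counts, medians and sums.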

Additional observations from a re-analysis of the deposited data

How the results depend on the processing

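The sign of 2 called genes crossed 0, neither being called there. Atp5l was at -0.0036 (limma adjusted p = 0.969) with upper-quartile scaling, which moved the median of all tested genes from 0.17 to -0.07. Cox8a was at 0.027 (limma adjusted p = 0.730) with the length and GC correction, and the cause was not tested. With the values as deposited 35 respiratory chain genes were lower and 4 higher. Higher calls were 0 with median-ratio and upper-quartile scaling, 15 with equal sums and 20 with the length and GC correction, and lower calls were 53 with upper-quartile scaling, 23 with equal sums and 23 with no filter. The median moved to -0.371, -0.409, 0.002 and -0.018 with median-ratio, upper-quartile, equal-sum scaling and the length and GC correction. Complex I had 2 higher and 10 lower as deposited. Its higher calls became 0, 0, 10, 1 and 14 with median-ratio, upper-quartile, equal sums, no filter and the length and GC correction, and its lower calls 20, 21, 6 and 6 with the first 4 of these. Complex II had 3 lower with either median-ratio or upper-quartile scaling and 1 higher with equal sums. Complex III had 1 higher with the length and GC correction. Complex IV had 0 higher with median-ratio and upper-quartile scaling, 2 with equal sums and 2 with the length and GC correction, and 5 lower with no filter. Complex V had 0 higher with median-ratio and upper-quartile scaling, 2 with equal sums and 3 with the length and GC correction, and 5, 7 and 6 lower with equal sums, no filter and the length and GC correction. The pseudocount of 0.1 and the filter of 5 FPKM changed no call of a gene they tested. Leaving out 1 library, with a filter of 1 FPKM in 2 libraries, gave 22 to 44 lower and 2 to 7 higher, with medians of -0.209 to -0.104. By complex, lower calls ran from 6 to 17 (I), 1 to 2 (II), 4 to 4 (III), 5 to 10 (IV) and 5 to 11 (V), and higher calls from 1 to 4, 0 to 1, 0 to 1, 1 to 1 and 0 to 2. Isoform shares differed by -15.29 to -13.71 points for Cox6b2, -0.26 to -0.15 for Cox4i2, -3.03 to -0.29 for Cox7a1, -8.17 to -5.85 for Atp5g1, -1.56 to -0.73 for Atp5g2 and 7.19 to 9.06 for Atp5g3. Same-numbered libraries did not deviate together (correlations of -0.00121, -0.00933 and 0.0492), so the numbers were not taken as pairs. With the replicate block 30 genes were lower and 3 higher, 1 of them in complex I. For the lowest isoforms depth limits what can be seen, since 3 fragments on Cox7b2 are worth 0.380 to 0.437 FPKM.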
